A study of Mus musculus with 32 samples.

Results

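Fat cells arise from fibroblast-like progenitors under the control of a small set of transcription factors. The genes for 10 of these adipogenic factors, out of 31053 genes in the deposited table, were followed by symbol through all cells of a mouse fat tissue survey: Pparg, Cebpa, Cebpb, Cebpd, Ebf1, Ebf2, Zfp423, Klf4, Nr2f2 and Tcf21. All 10 were found under a single row each and all had UMIs (unique molecular identifiers, each marking 1 captured RNA molecule). The rule that names them uses the symbol and no threshold on a measured value.

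The study profiled single cells of the stromal vascular fraction, the cells of fat tissue other than the fat-filled adipocytes, from the epididymal depot of C57BL/6 mice. Over 16 weeks WT and CD169-DTR mice ate normal or high fat food, and every group, WT controls included, then received diphtheria toxin (DT) for 7 days. CD169-DTR mice carry the toxin receptor under control of the CD169 gene, and the treatment was aimed at their tissue resident macrophages. The question was how that removal acts on immune and other cells in lean and obese fat. CD45+ and CD45- cells were sorted separately, with many F4/80hi cells and Ly6Chi monocytes kept out, and were mixed in equal parts. The 32 sample records are 8 sequencing runs of each of 4 libraries, so each combination of diet and genotype is 1 library. The number of mice behind a library is not given, there is no replicate, and no comparison between libraries has a test. All intervals cover counting error only.

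The libraries held 4014 to 6696 cell barcodes and 33390225 to 64766718 UMIs. After filtering, 3599 to 5594 cells remained per library, with a median of 6608 to 9207.5 UMIs per cell. Between 84 and 277 barcodes of a library also occurred in another library, and those with under 10% of the UMIs of their twin were removed. Siglec1, the gene for CD169, was at 0.140 CPM (UMIs per 1000000 UMIs of the cells summed) on normal diet and 1.12 CPM on high fat diet in the libraries labelled WT. It was at 3.49 and 3.01 CPM in those labelled CD169-DTR, so it was higher where the labels place the ablation. The libraries are therefore called by their labels throughout. Cells were assigned to classes with marker lists that hold none of the 10 factors. The largest class, fibroblast-like cells, was led by Dpt, Lum and other matrix genes and held 1030, 1118, 1755 and 2794 cells. Unless stated otherwise, 4 values in a row stand in this order of libraries: normal diet labelled WT, normal diet labelled CD169-DTR, high fat diet labelled WT, high fat diet labelled CD169-DTR.

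In adipogenesis, C/EBP-beta and C/EBP-delta are induced early by hormonal signals, and KLF4 acts upstream of C/EBP-beta. They switch on PPAR-gamma and C/EBP-alpha, which then maintain each other and drive the genes of lipid uptake and storage. EBF1, EBF2 and ZFP423 mark or commit cells to the preadipocyte fate, TCF21 is a factor of visceral fat progenitors, and NR2F2 (COUP-TFII) has been described as both a brake and a requirement. Several of these factors also have roles outside fat: PPAR-gamma in endothelium and macrophages, EBF1 in B cells, C/EBP-beta in myeloid cells and NR2F2 in veins.

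Pparg (ENSMUSG00000000440) lies on chromosome 6 at 115360951 to 115490399 of GRCm38, on the plus strand. It has several start sites, and the most downstream is that of the adipocyte-enriched PPAR-gamma form. RefSeq start-site windows, 250 bases before to 50 after each start on the same build, matched 8 of the 10 factors with 12 windows. They were searched on both strands for the letters TTGCNNAA (C/EBP), TCCCNNGGGA (EBF) and GGGNGTGG (KLF). The C/EBP letters stood in 10.8% of all 32851 windows, and among the factors in the most downstream Pparg window and in a Zfp423 window. Those windows are printed up to the start, 5′ to 3′ along the gene's strand, because they hold letters bound by the early factors. Capitals mark the C/EBP letters.
Pparg downstream start, chr6:115421816-115422065, plus strand: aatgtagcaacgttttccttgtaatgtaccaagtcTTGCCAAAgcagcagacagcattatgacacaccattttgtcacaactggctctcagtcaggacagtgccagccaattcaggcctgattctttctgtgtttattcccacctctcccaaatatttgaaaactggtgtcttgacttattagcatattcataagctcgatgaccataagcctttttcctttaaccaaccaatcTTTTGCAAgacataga
Zfp423 upstream start, chr8:87959596-87959845, minus strand: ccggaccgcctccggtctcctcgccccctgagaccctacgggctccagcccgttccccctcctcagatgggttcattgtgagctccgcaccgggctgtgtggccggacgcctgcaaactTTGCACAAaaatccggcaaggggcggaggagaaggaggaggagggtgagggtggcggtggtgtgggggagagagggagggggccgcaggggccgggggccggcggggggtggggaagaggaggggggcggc
In the Pparg window the matches begin 215 and 16 bases before the start. The window is AT-rich, with 40.8% G or C, against 82.4% and 63.6% before the other Pparg starts, which lack the letters. The KLF letters were in 17.6% of all windows and in those of Cebpb, Ebf1 and Zfp423, and the EBF letters in 0.904% and in none of the factors. A match describes the sequence only. The counts come from the 3′ end of transcripts, so they do not show which Pparg start was used.

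The other factors are spread over the genome (GRCm38). Cebpa (ENSMUSG00000034957) lies on chromosome 7 at 35119293 to 35121928, and Nr2f2 (ENSMUSG00000030551) on the same chromosome at 70351944 to 70366735. Cebpb (ENSMUSG00000056501) is on chromosome 2 at 167688915 to 167690418, and Cebpd (ENSMUSG00000071637) on chromosome 16 at 15887286 to 15891031. Ebf1 (ENSMUSG00000057098) is on chromosome 11 at 44617317 to 45008091, and Ebf2 (ENSMUSG00000022053) on chromosome 14 at 67233292 to 67430918. Zfp423 (ENSMUSG00000045333) is on chromosome 8 at 87661810 to 87959595, Klf4 (ENSMUSG00000003032) on chromosome 4 at 55527143 to 55532466, and Tcf21 (ENSMUSG00000045680) on chromosome 10 at 22817281 to 22820174. Cebpb overlaps Tmem189 on the opposite strand (11414 UMIs against 146398) and Cebpd overlaps Spidr in the same way (1426 against 128991). Whether the counting used strand is not stated, so reads in those overlaps are uncertain.

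The factors did not share a cell class. By the mean over libraries with at least 50 cells of a class, 3 of the 10 (Cebpd, Ebf2 and Tcf21) were highest in fibroblast-like cells. Another 3 (Pparg, Zfp423 and Nr2f2) were highest in endothelial-like cells. The remaining 4 peaked in macrophage-like (Cebpa), neutrophil-like (Cebpb), B-like (Ebf1) and mesothelial-like cells (Klf4). The levels below are ranges over libraries. In bulk sums of a class, fewer expressing cells and less RNA per cell cannot be told apart.

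**Figure D1:**
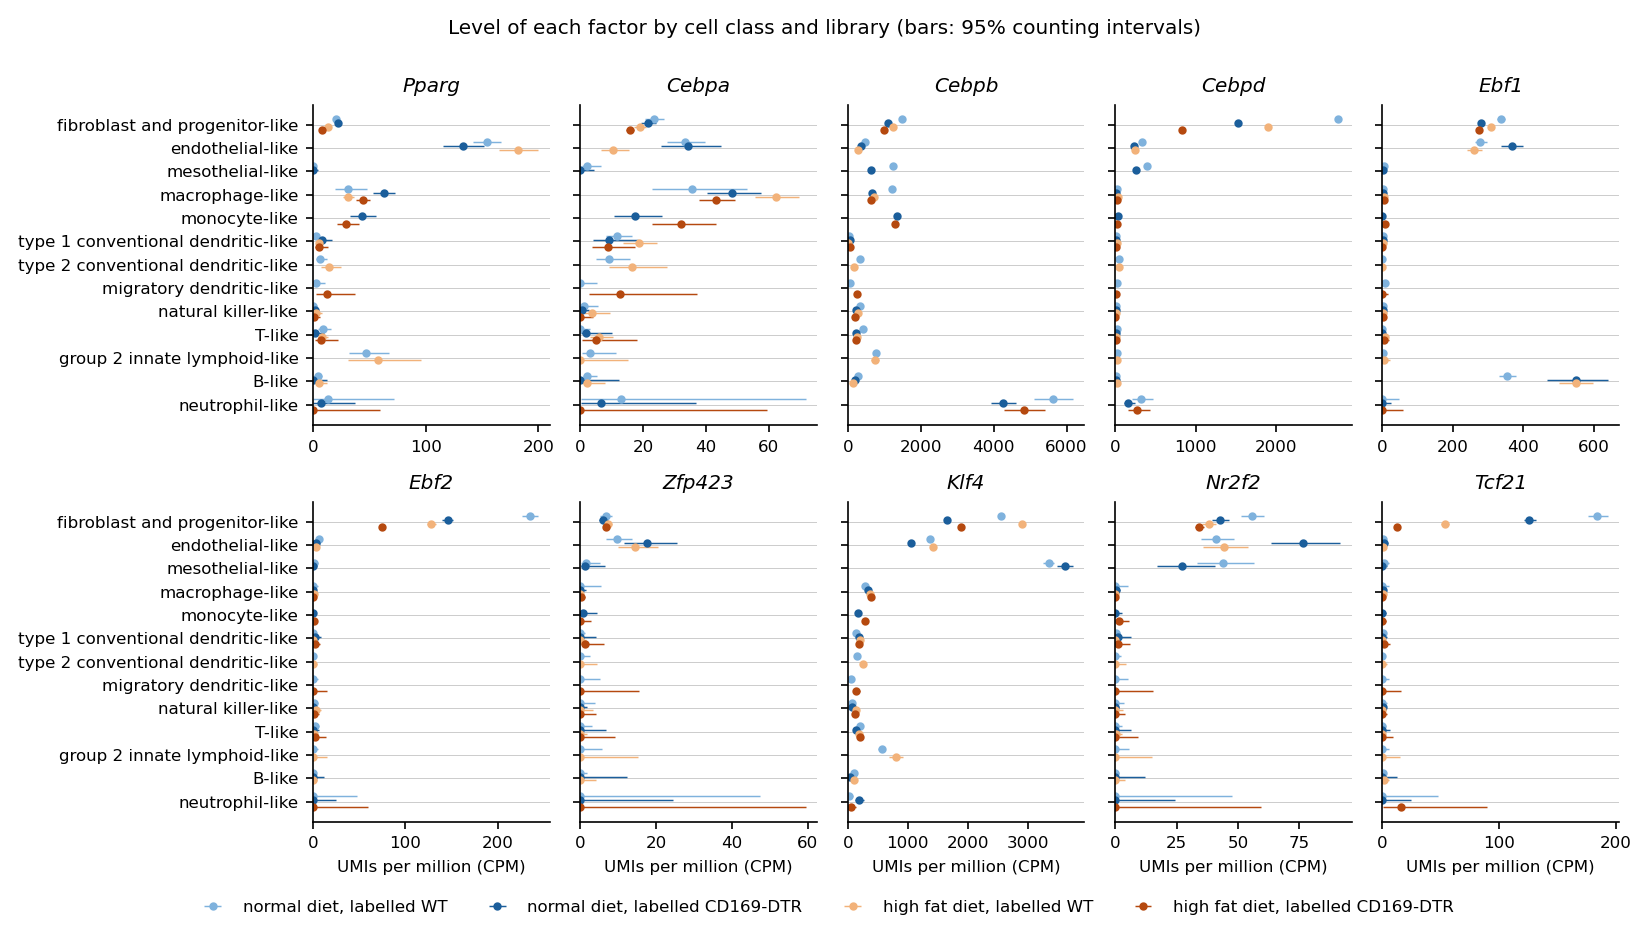
Level of each factor in CPM (horizontal axis, linear, a separate scale for each gene) by cell class and library, with 95% counting intervals as bars. Points are shown for libraries with at least 50 cells of the class. Tcf21 and Ebf2 lie near 0 outside the fibroblast row, except for a Tcf21 point of 16.1 CPM from a single UMI in the neutrophil row, Ebf1 in the fibroblast, endothelial and B rows, and Pparg is farthest right in the endothelial row, at 133 to 182 CPM.

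Tcf21 and Ebf2 were the factors most restricted to fibroblast-like cells. Tcf21 ranged from 12.5 to 184 CPM there, and from 0.451 to 1.30 CPM in endothelial-like cells. A value of 16.1 CPM in the neutrophil-like cells of the high fat diet library labelled CD169-DTR is a single UMI. Ebf2 ranged from 74.2 to 235 CPM in fibroblast-like cells and from 2.71 to 6.53 CPM in endothelial-like cells. Pericyte-like cells, the mural cells of small vessels, also carried Ebf2 UMIs (201, 166 and 331 CPM in the first 3 libraries), but from 7, 6 and 5 UMIs in 8, 5 and 3 cells. Cebpd was higher in fibroblast-like cells (828 to 2759 CPM) than in mesothelial-like (264 to 394), endothelial-like (237 to 339) and neutrophil-like cells (165 to 322), whose ranges overlap one another.

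Pparg, the master regulator of fat cell formation, was lower in fibroblast-like cells (7.90 to 21.7 CPM) than in several other classes. It ranged from 133 to 182 CPM in endothelial-like cells, from 47.1 to 57.3 in group 2 innate lymphoid-like cells, from 31.1 to 62.6 in macrophage-like cells and from 29.5 to 43.2 in monocyte-like cells. The endothelial range lies apart from the rest, while the lymphoid, macrophage and monocyte ranges do not separate in full. Among macrophage-like cells, those with lipid-associated markers (Trem2, Gpnmb, Cd9 and others) held Pparg at 41.6, 65.8, 34.0 and 42.1 CPM. Those with resident markers (Timd4, Lyve1, Cd163 and others) held it at 4.60 CPM in the only library with at least 50 such cells, high fat diet labelled WT, from 2 UMIs (95% interval 0.557 to 16.6). Cebpa, the partner of Pparg, ranged from 35.5 to 62.3 CPM in macrophage-like cells, from 10.4 to 34.3 in endothelial-like, from 17.3 to 31.9 in monocyte-like and from 15.7 to 23.3 in fibroblast-like cells. The last 3 ranges overlap.

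Cebpb, a factor shared by adipogenesis and myeloid development, ranged from 4263 to 5623 CPM in neutrophil-like cells. Monocyte-like (1290 to 1338) and fibroblast-like cells (990 to 1495) followed with overlapping ranges. Ebf1, which directs B cell fate as well as adipogenesis, ranged from 354 to 549 CPM in B-like, 260 to 368 in endothelial-like and 273 to 337 in fibroblast-like cells. The highest value in any other class with at least 50 cells was in monocyte-like cells, where the range was 0 to 7.77. The 16 pericyte-like cells, too few to rank, held Ebf1 at 1093 CPM (883 to 1337) from 94 UMIs. Klf4 ranged from 3341 to 3617 CPM in mesothelial-like, 1653 to 2906 in fibroblast-like and 1048 to 1425 in endothelial-like cells. These ranges are apart, but the mesothelial one rests on the 2 normal diet libraries alone. Over all 235 mesothelial-like cells Klf4 was at 3059 CPM (3001 to 3118). The high fat diet cells, under 50 in each library, therefore lay together below both of those libraries. The ranges do not show an order of mesothelial-like and fibroblast-like cells on high fat diet. Klf4 is also an immediate early gene, a class that responds within minutes to handling such as tissue digestion. The summed level of 13 other genes of such a response (Fos, Jun, Egr1, Atf3, Hspa1a and others) was 29687 and 31383 CPM in mesothelial-like cells on normal diet, 18964 to 24416 in fibroblast-like and 17257 to 17999 in endothelial-like cells. Its part in the Klf4 levels was not tested. Nr2f2 ranged from 41.1 to 76.5 CPM in endothelial-like, 34.1 to 55.9 in fibroblast-like and 27.1 to 43.8 in mesothelial-like cells, which overlap. The 16 pericyte-like cells held Nr2f2 higher, at 198 CPM (115 to 316), from 17 UMIs. Zfp423, a zinc finger factor that commits cells to the preadipocyte fate, was sparse, at 9.80 to 17.5 CPM in endothelial-like and 6.00 to 7.19 in fibroblast-like cells.

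Within fibroblast-like cells, Tcf21 differed most between the libraries. Its levels were 184, 126, 53.5 and 12.5 CPM, from 1886, 1852, 1078 and 507 UMIs. Both high fat diet libraries were below both normal diet libraries, and at each diet the library labelled CD169-DTR was the lower. High fat against normal diet, the log2 ratio was -1.78 (95% interval -1.89 to -1.67; 3.44-fold lower) between the libraries labelled WT. It was -3.33 (-3.48 to -3.19; 10.1-fold lower) between those labelled CD169-DTR. Against the library labelled WT, the one labelled CD169-DTR differed by -0.54 (-0.64 to -0.45) on normal diet and by -2.09 (-2.25 to -1.94; 4.26-fold lower) on high fat diet. The 4 comparisons are made from the same 4 libraries, so each library enters 2 of them.

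Shares of cells gave the same order. With every cell thinned to 2000 UMIs, Tcf21 was detected in 25.1% (22.5 to 27.9, exact binomial), 17.7% (15.4 to 20.1), 8.84% (7.53 to 10.3) and 3.14% (2.52 to 3.87) of fibroblast-like cells. Without thinning the shares ran from 56.7% to 14.1% in the same order. Thinning left out 20, 37, 69 and 59 shallower cells. In natural killer-like cells, which should lack the gene, it was detected after thinning in 1 of 428 cells of the normal diet library labelled CD169-DTR (0.234%) and in none of 214, 246 and 167 cells of the others. The upper limits there were 1.71%, 1.49% and 2.18%. Their median depth was 3083 to 3900 UMIs, against 9879.5 to 13012.5 in fibroblast-like cells.

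Across all 10 factors, a log2 ratio of at least 1 in size (2-fold) was taken as a call, among genes with at least 50 UMIs over both libraries. High fat against normal diet between the libraries labelled WT, 1 of the 10 was called, Tcf21, where 6.91% of 11119 genes were called. Between the libraries labelled CD169-DTR it was 2 of 10, Tcf21 and Pparg, both lower, where 13.7% of 12517 genes were called. Labelled CD169-DTR against WT on normal diet, 0 of 10 were called, where 9.83% of 11090 genes were. On high fat diet it was 2 of 10, Tcf21 and Cebpd, both lower, where 21.3% of 12565 genes were called. The counts of factors are close to these shares, which take in both directions. Every called factor was lower, however. Of all genes, 4.13%, 4.55%, 3.03% and 3.73% were lower by 2-fold in the same order of comparisons. The difference from these lower shares was not tested. No factor was higher by 2-fold in any comparison, and the interval lay below 0 for 8, 7, 7 and 9 of the 10 in the same order. Over all genes that held for 31.4%, 25.2%, 20.4% and 18.2%. An interval excludes 0 more readily for a gene with many UMIs. Klf4, Cebpd and Cebpb held 185407, 122162 and 96886 UMIs in fibroblast-like cells, so these shares are not matched for depth. The median log2 ratio of the factors was -0.42, -0.39, -0.41 and -0.48, against -0.08, 0.14, 0.11 and 0.33 over all genes.

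The scaling bears on these values. TMM, which scales on the bulk of genes instead of total UMIs, brought the median of all genes to 0.03, 0.04, 0.01 and 0.03. In the libraries labelled WT, 40.2% of the diet calls over all genes were higher with total UMIs and 52.4% with TMM. In the genotype comparison on high fat diet, the figures were 82.4% and 65.7%. With TMM, the diet intervals of Cebpa (-0.43 to 0.05) and Ebf1 (-0.08 to 0.04) in the libraries labelled WT included 0. The Ebf1 diet interval in the libraries labelled CD169-DTR (-0.18 to -0.08) then lay below 0. So did that of Zfp423 for label on high fat diet (-0.67 to -0.07). Relative to the median of all genes, the Tcf21 ratios were -1.70 and -3.47 for diet and -0.65 and -2.43 for genotype.

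**Figure D2:**
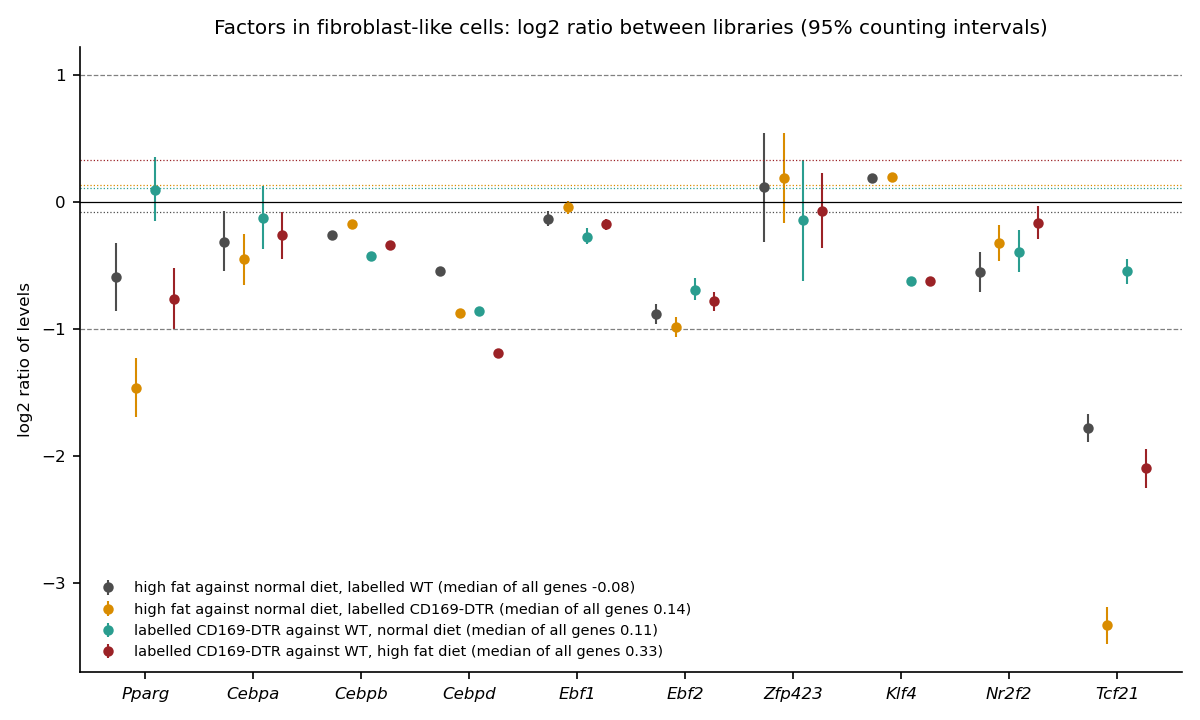
Log2 ratio of each factor between libraries in fibroblast-like cells (vertical axis), with 95% counting intervals as bars and a color for each of the 4 comparisons. Dashed lines mark 2-fold and dotted lines the median of all genes. Tcf21 lies lowest, from -0.54 to -3.33, and the 4 Zfp423 intervals all cross 0.

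The early factors Cebpb and Cebpd were lower where diet or label changed, and Klf4 was not uniform. Cebpd stood at 2759, 1518, 1895 and 828 CPM, highest in the normal diet library labelled WT. Its log2 ratio was -0.54 (-0.56 to -0.52) and -0.87 (-0.90 to -0.85) for high fat diet, and -0.86 (-0.89 to -0.84) and -1.19 (-1.22 to -1.17; 2.29-fold lower) for the CD169-DTR label. After thinning it was detected in 92.8%, 78.0%, 85.5% and 62.0% of fibroblast-like cells, against 1.20% to 3.74% of natural killer-like cells. Cebpb stood at 1495, 1114, 1252 and 990 CPM, with log2 ratios of -0.26 and -0.17 for diet and -0.42 and -0.34 for label. Klf4 stood at 2549, 1653, 2906 and 1893 CPM. It was higher on high fat diet (0.19 and 0.20) and lower under the CD169-DTR label (-0.62 and -0.62). The summed level of those 13 response genes was 19893, 18964, 22698 and 24416 CPM in these cells. The part of handling in the differences of Klf4, Cebpb and Cebpd was not tested.

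Pparg and Cebpa were sparse in fibroblast-like cells. Pparg stood at 20.2, 21.7, 13.4 and 7.90 CPM, from 207, 318, 270 and 319 UMIs. The high fat diet libraries were the lower pair, with log2 ratios of -0.59 (-0.86 to -0.32) and -1.46 (-1.69 to -1.23; 2.75-fold lower). By label the ratio was 0.10 (-0.15 to 0.36) on normal diet and -0.76 on high fat diet, with an interval that ends at -0.52. Thinned shares were 3.07% (2.09 to 4.33), 3.33% (2.34 to 4.58), 2.02% (1.40 to 2.81) and 1.57% (1.14 to 2.11), against at most 0.407% of natural killer-like cells. Cebpa varied less, at 23.3, 21.5, 18.9 and 15.7 CPM. Its log2 ratios were -0.31 and -0.45 for diet, -0.12 (-0.37 to 0.13) for label on normal diet and -0.26 (-0.45 to -0.08) on high fat diet.

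Transcripts of mature adipocytes, like Pparg, were lower on high fat diet, but by label on high fat diet they were higher where Pparg was lower. Summed over 8 of them (Adipoq, Plin1, Cidec, Retn, Cfd, Car3, Adrb3 and Lep), the level in fibroblast-like cells was 191, 188, 4.96 and 34.0 CPM. In the libraries labelled WT the sum was lower on high fat diet in every class measured on both diets. Normal against high fat diet, it was 158 and 10.5 CPM in macrophage-like, 26.9 and 2.79 in natural killer-like and 60.8 and 1.10 in B-like cells. In those labelled CD169-DTR it was lower in all such classes but neutrophil-like cells (6.61 and 32.3 CPM). Where these UMIs came from was not tested. Among fibroblast-like cells with none of them, Pparg stood at 16.7, 16.6, 13.4 and 7.09 CPM. Among cells with at least 1 it stood at 46.9, 54.3, 13.9 and 21.0. Without the cells carrying such UMIs, the Pparg ratio was -0.32 and -1.23 for diet and -0.92 for label on high fat diet, while that of Tcf21 was -1.79, -3.33 and -2.05. So the diet difference of Pparg was smaller and that of Tcf21 as large in cells without adipocyte transcripts. Adipoq, Plin1, Cidec, Retn, Cfd and Lep are among the targets of PPAR-gamma and C/EBP-alpha listed below. The smaller Pparg difference may therefore follow in part from how the cells were chosen.

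**Figure D3:**
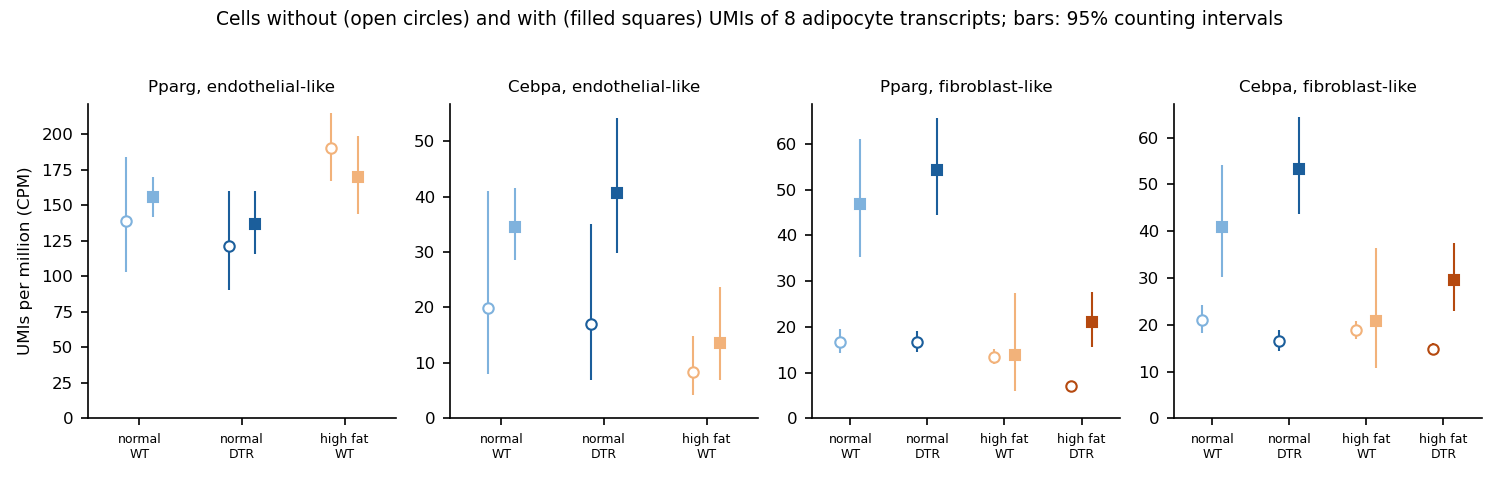
Pparg and Cebpa in CPM (vertical axis) by library in endothelial-like and fibroblast-like cells. Open circles are cells without and filled squares cells with UMIs of 8 adipocyte transcripts, with 95% counting intervals as bars. In fibroblast-like cells on normal diet, Pparg was higher in cells with them (46.9 and 54.3 CPM) than without (16.7 and 16.6 CPM).

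Among the commitment factors, Ebf2 followed Tcf21 at a smaller size. It stood at 235, 146, 128 and 74.2 CPM, with log2 ratios of -0.88 (-0.96 to -0.80) and -0.98 (-1.06 to -0.90) for diet and -0.69 (-0.77 to -0.60) and -0.78 (-0.86 to -0.71) for label. It was just outside the 2-fold threshold with high fat diet in the libraries labelled CD169-DTR, and past it with TMM (-1.07). Its relative Ebf1 differed little, at 337, 280, 308 and 273 CPM, with ratios between -0.27 and -0.04. Nr2f2 stood at 55.9, 42.7, 38.1 and 34.1 CPM, with ratios of -0.55 and -0.32 for diet and -0.39 and -0.16 for label. The last of these was 0.01 when each cell had equal weight. Zfp423 stood at 6.64, 6.00, 7.19 and 6.86 CPM, and all 4 intervals included 0, the widest from -0.62 to 0.33, so a difference of that size was not detectable at this depth. With TMM the label ratio on high fat diet was -0.37 (-0.67 to -0.07), which excludes 0.

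Fibroblast-like cells were divided by further markers into early progenitor-like cells (Dpp4, Pi16, Cd55 and others) and committed preadipocyte-like cells (Col15a1, Icam1, Lpl, Cd36, Fabp4 and others). The libraries held 192, 146, 237 and 386 early and 768, 894, 1374 and 1591 committed cells. Of 284 cells with myofibroblast markers, 273 were in the high fat diet library labelled CD169-DTR. Lpl, Cd36 and Fabp4 are targets of PPAR-gamma, so a higher Pparg level in committed cells follows in part from how they were chosen. Pparg stood at 26.7, 26.3, 16.0 and 10.8 CPM in committed cells. In early cells it stood at 0.976, 2.32, 2.64 and 2.30 CPM, from 2, 5, 7 and 14 UMIs. The log2 ratio of committed over early was 4.77 (2.90 to 7.83), 3.50 (2.27 to 5.14), 2.60 (1.53 to 3.93) and 2.23 (1.45 to 3.12).

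**Figure D4:**
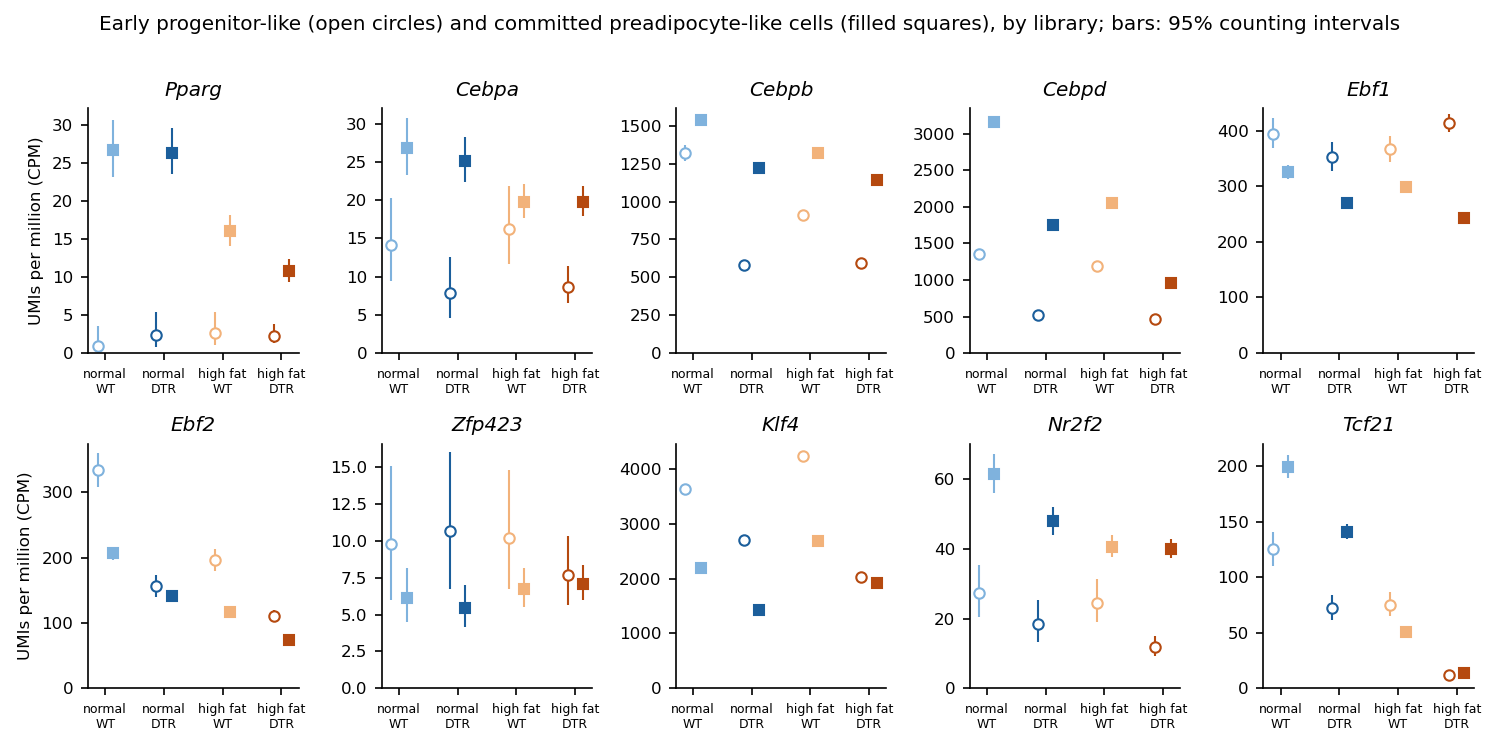
Level of each factor in CPM (vertical axis, linear, starting at 0, separate scales) in early progenitor-like cells (open circles) and committed preadipocyte-like cells (filled squares) of each library, with 95% counting intervals. Pparg, Cebpd and Nr2f2 are higher in committed cells in all 4 libraries, and Klf4 and Ebf1 in early cells.

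The other factors differed in direction by this division. Cebpd was higher in committed cells in each library, at 3167, 1751, 2054 and 959 CPM against 1357, 522, 1186 and 468. Nr2f2 was likewise higher in committed cells, at 61.5, 48.0, 40.7 and 40.1 CPM against 27.3, 18.6, 24.5 and 12.0. Cebpb showed that order too, at 1535, 1219, 1318 and 1145 CPM against 1319, 580, 910 and 595. Klf4 was the reverse, at 3635, 2706, 4235 and 2021 CPM in early and 2202, 1435, 2681 and 1918 in committed cells. Ebf1 was also higher in early cells, at 394, 353, 367 and 414 CPM against 326, 270, 299 and 243. Ebf2 was higher in early cells, at 334, 156, 196 and 111 CPM against 207, 142, 117 and 74.3, although the interval included 0 in the normal diet library labelled CD169-DTR (-0.31 to 0.04). Cebpa was higher in committed cells, at 26.8, 25.2, 19.8 and 19.8 CPM against 14.2, 7.89, 16.2 and 8.69, with an interval that included 0 in the high fat diet library labelled WT (-0.17 to 0.78). Zfp423 had intervals that included 0 in 3 of the 4 libraries.

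Tcf21 did not keep an order. It was higher in committed cells on normal diet, at 199 and 141 CPM against 125 and 71.9. On high fat diet it was lower in committed cells of the library labelled WT (50.7 against 75.4 CPM), and the library labelled CD169-DTR showed no difference beyond counting error (13.8 against 12.3 CPM; log2 ratio 0.17, -0.20 to 0.55). Its diet difference was present in both subsets. In the libraries labelled WT the log2 ratio was -0.73 in early (interval up to -0.46) and -1.97 in committed cells, and in those labelled CD169-DTR it was -2.55 (-2.97 to -2.14) and -3.35. The Cebpd label difference was also present in early cells, at -1.38 (-1.48 to -1.28) on normal diet and -1.34 (-1.42 to -1.27) on high fat diet.

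Endothelial-like cells, with 897, 427 and 495 cells in the first 3 libraries, had 8 of the 10 factors above the count minimum. The high fat diet library labelled CD169-DTR held 15 such cells and was not compared. High fat against normal diet in the libraries labelled WT, 1 of 8 was called, Cebpa, where 3.29% of 7998 genes were called. Labelled CD169-DTR against WT on normal diet, 0 of 8 were called, where 2.48% of 7736 genes were. The median log2 ratio of the factors was -0.02 and -0.08, against 0.00 and 0.05 over all genes.

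Cebpa stood at 33.2, 34.3 and 10.4 CPM in endothelial-like cells, from 122, 53 and 23 UMIs, with a log2 ratio of -1.68 (-2.39 to -1.03) for diet. The 8 adipocyte transcripts were also lower with high fat diet, as in other classes, at 3760, 2844 and 226 CPM. At least 1 of their UMIs was in 88.9%, 69.3% and 36.2% of the cells. In cells without any, Cebpa was still lower on high fat than on normal diet in the libraries labelled WT, at 8.29 (4.14 to 14.8) against 19.9 CPM (8.01 to 41.0). These levels rest on 11 and 7 UMIs, and their intervals overlap. Pparg behaved otherwise. It stood at 154, 133 and 182 CPM, and at 139, 121 and 190 CPM in cells without adipocyte transcripts. Thinned to 2000 UMIs, Pparg was detected in 27.1%, 23.3% and 30.8% of endothelial-like cells.

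Nr2f2, a factor of venous identity, stood at 41.1, 76.5 and 44.2 CPM in endothelial-like cells and was highest in the normal diet library labelled CD169-DTR (0.90, 0.54 to 1.25). That library also had the largest share of cells with at least 2 venous markers, at 15.2% (lower bound 11.9%) against 6.58% (5.04 to 8.40) and 7.68% (5.49 to 10.4). In the rest of the cells Nr2f2 still stood at 39.1, 71.5 and 43.6 CPM. Over all libraries it was at 79.4 CPM (60.7 to 102) in venous-marker cells and 20.7 CPM (13.1 to 31.1) in arterial-marker cells. Cells with under 2 markers of both kinds held it at 51.8 CPM (45.9 to 58.3). Between venous-marker and arterial-marker cells Pparg had the reverse order, at 78.1 CPM (59.6 to 101) and 162 CPM (139 to 188). It was at 167 CPM (156 to 178) in cells with under 2 of both. These sums mix libraries with different venous shares, and the part of library in them was not tested. Zfp423 was also higher in the library labelled CD169-DTR (17.5 against 9.80 CPM; 0.84, 0.06 to 1.60), from 27 and 36 UMIs. Ebf1 was higher there by 0.40 (0.25 to 0.55).

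In macrophage-like cells, a class that the sort had partly excluded, Pparg stood at 31.1, 62.6, 31.3 and 44.1 CPM, from 21, 167, 164 and 226 UMIs. Both libraries labelled CD169-DTR were above both labelled WT, with log2 ratios of 1.01 (0.35 to 1.74) and 0.49 (0.19 to 0.79). Cells with lipid-associated markers were 17 of 52, 79 of 143, 161 of 351 and 225 of 346 macrophage-like cells, a share that is larger in the libraries labelled CD169-DTR. Its part in the Pparg difference was not tested. Within those cells Pparg stood at 65.8 against 41.6 CPM on normal diet and 42.1 against 34.0 on high fat diet, with overlapping intervals at each diet. In B-like cells Ebf1 stood at 354, 549 and 548 CPM in the first 3 libraries, lowest in the normal diet library labelled WT.

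Further genes of the pathway were taken from 3 lists. Over all genes in fibroblast-like cells, 2.78% were higher and 4.13% lower by 2-fold with high fat diet in the libraries labelled WT, and 9.18% and 4.55% in those labelled CD169-DTR. By label the shares were 6.80% and 3.03% on normal diet and 17.5% and 3.73% on high fat diet. Of 22 other factors that promote adipogenesis, 20 or 22 were measured in fibroblast-like cells. With high fat diet 0 were higher and 1 lower by 2-fold in the libraries labelled WT, and 1 higher and 4 lower in those labelled CD169-DTR. Stat5a, a growth hormone signal transducer, was lower in both (-1.61, -1.80 to -1.42, and -1.40, -1.55 to -1.25). Nr1h3, a sterol-sensing nuclear receptor, was lower in the libraries labelled CD169-DTR (-1.15, -1.29 to -1.01). By label, 1 was higher and 1 lower on normal diet, and 2 higher and 2 lower on high fat diet (2 higher and 5 lower with TMM). Egr2, which cooperates with KLF4 upstream of Cebpb, was higher under the CD169-DTR label (1.17, 1.07 to 1.27, and 1.80, 1.74 to 1.87). Bmp4, a commitment signal, was lower (-1.88, -2.33 to -1.45, and -1.83, -2.08 to -1.58). Egr1 is among the response genes named above, and the part of handling in the Egr2 difference was not tested. The list medians were -0.31, -0.29, -0.17 and -0.05, and the last was -0.36 with TMM.

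Of 24 genes that restrain adipogenesis, 21 or 23 were measured. By 2-fold, 0 were higher and 1 lower with high fat diet in the libraries labelled WT, and 4 higher and 1 lower in those labelled CD169-DTR. By label, 1 was higher and 1 lower on normal diet, and 3 higher and 0 lower on high fat diet. Ddit3, a stress-induced inhibitor of C/EBP proteins, stood at 45.6, 124, 66.9 and 357 CPM, and its label ratio was 1.44 (1.30 to 1.59) on normal and 2.41 (2.33 to 2.50) on high fat diet. Sox9, which holds progenitors undifferentiated, was lower with high fat diet in the libraries labelled CD169-DTR (-1.62, -1.71 to -1.54). Hes1, a Notch target, was higher under that label on high fat diet (1.47, 1.39 to 1.55). The medians were -0.20, 0.14, 0.13 and 0.26, and the last was -0.04 with TMM.

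Of 28 targets of PPAR-gamma and C/EBP-alpha, 19 to 22 were measured. With high fat diet 3 were higher and 4 lower in the libraries labelled WT, and 3 higher and 6 lower in those labelled CD169-DTR. Under the CD169-DTR label 5 were higher and 1 lower on normal diet, and 9 higher (7 with TMM) and 0 lower on high fat diet. So the targets did not share the direction of Pparg in the last comparison: their median was 0.71, against 0.33 for all genes (0.40 against 0.03 with TMM). Angptl4, a secreted lipase inhibitor that fasting and hypoxia also induce, stood at 105, 475, 375 and 1103 CPM. Plin2, a lipid droplet coat protein, was higher under the label on normal diet (1.66, 1.58 to 1.74). Plin1, an adipocyte droplet protein, was lower with high fat diet (-3.48, -4.29 to -2.75, and -2.09, -2.41 to -1.78), and so was the sum of the 8 adipocyte transcripts. In endothelial-like cells 12 of 25 targets were lower by 2-fold with high fat diet, where 2.45% of all genes were lower, with a median of -0.97. They included the adipocyte transcripts Cfd (1408 against 31.1 CPM) and Retn (316 against 19.4 CPM), and the gluconeogenic enzyme gene Pck1 (26.9 against 2.26 CPM). The sum of the 8 adipocyte transcripts was lower with that diet in other classes of these libraries too.

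Likeness of pattern was described by Pearson's r of log2(CPM + 1) over 39 pairs of library and class, among 12597 genes. The points share libraries and depth, so the values are descriptions. Pairs of factors with the highest r were Zfp423 with Nr2f2 (0.93) and Ebf2 with Tcf21 (0.86), and Pparg with Tcf21 had 0.05. Over all genes, Tcf21 was most like Scg3 (0.95), Pi15 (0.94) and Lrrn1 (0.92), and Ebf2 most like Ism1 (0.95), Meiob (0.95) and Lmod1 (0.94). Pparg was most like Cd36 (0.81), a fatty acid receptor gene that is itself a marker used above, then Gnb1 (0.78) and Nxpe4 (0.75). Cebpb was most like Pygl (0.88), a glycogen phosphorylase gene, Cebpd most like Fam114a1 (0.91) and Klf4 most like Crtap (0.91). Nr2f2 was most like Fam13c (0.98), Zfp423 most like Pcdhb17 (0.98), Ebf1 most like Pik3c2b (0.83) and Cebpa most like Rps6ka2 (0.77).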

How the data were processed

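Per the submitters' processing notes, the authors used Cell Ranger 3.1.0 with the mm10 build, and the libraries were made with droplet 3′ chemistry per the labels' protocols. The authors deposited 1 aggregated matrix of raw UMI counts, not normalized. The suffix of a barcode was matched to a library by its place in the aggregation list, and no further source states that match.

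A cell was kept with 300 or more genes and no more than 10% mitochondrial UMIs. Scrublet (scanpy 1.11.5) was run on each library and marked 0.690% to 1.37% of cells as doublets, against an estimated multiplet rate of 5.4% per the labels. Barcode copies were removed (233, 0, 22 and 33). A cell joined a class with at least 3 detected markers, at least 50% of the list and a lead of 25 percentage points. Between 74.5% and 79.6% of cells joined one. For each class and library, counts were added up and divided by their own total. Levels have exact Poisson intervals and log2 ratios exact conditional binomial intervals, at 95%. Ratio intervals were tested on data simulated with Poisson counts. Those hold counting error only, so spread between cells or mice was not covered. TMM factors came from edgeR 4.0.16.

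The 10 factors and the lists were chosen with earlier results of these data known, and the gate thresholds were set after seeing the data. All factors are described. From each list, the text drew on the 3 genes with the highest and the 3 with the lowest ratio past 2-fold.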

Additional observations from a re-analysis of the deposited data

How the results depend on the processing

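With 1 library per group, no replicate could be left out. No paired analysis was possible because no result comes from a test and each group is 1 library. In fibroblast-like cells, the number of factors past 2-fold, labelled CD169-DTR against WT on high fat diet, was 2 with total UMIs and 4 with TMM (Pparg, Cebpd, Ebf2 and Tcf21). With high fat diet in the libraries labelled CD169-DTR it was 2, and 3 with TMM or with equal weight for each cell. With high fat diet in the libraries labelled WT, Tcf21 was past 2-fold in every setting, and Ebf2 just reached it with equal weight for each cell. By label on normal diet no factor was past 2-fold under any setting tried. Of 40 ratios (10 factors, 4 comparisons), 27 moved by more than their counting interval with TMM and 14 with equal weight. Under a stricter cell filter 5 moved, under a stricter marker gate 3, and under a looser filter, kept doublets or classes by Leiden cluster none did. No ratio past 2-fold changed sign. Signs turned for Nr2f2 by label on high fat diet and for Zfp423 in both label comparisons with equal weight. The Pparg label ratio on normal diet went from 0.10 to -0.01 without cells carrying adipocyte transcripts. Chosen after seeing the data, leaving out myofibroblast-like cells moved 1 ratio, leaving out cells with adipocyte transcripts 8, and keeping barcode copies none. The class in which each factor was highest was not recomputed without those 2 groups of cells. It was the same in every other setting but the filter at 1000 genes, where Cebpb was highest in monocyte-like and Ebf1 in fibroblast-like cells. The cause was not tested. Thinned shares of Zfp423, Pparg and Cebpa rest on 10 to 88 cells per library, so depth limits them most.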
